A study of Drosophila melanogaster with 4 samples.

Results

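The heat shock and co-chaperone genes described here are a set of stress-inducible chaperones, the helpers that work with them and the factor that switches them on. The set was defined by name: every probe set annotated to 1 of 10 listed genes (Hsp22, Hsp23, Hsp26, Hsp27, Hsp68, Hsp83, DnaJ-1, Hsf, stv and l(2)efl), and, as a group of its own, every probe set that matches several Hsp70 genes. This rule found 10 probe sets out of 13966, controls left aside. Of these, 8 match 1 listed gene, covering 7 of the 10 genes, and 2 match several Hsp70 genes. Another 4 probe sets are described beside the rule, which makes 14 in all. Hsp22 was measured here only by 3 probe sets that also match its neighbour CG4456, also called Hsp67Bb. The probe set of Hsp83 has no gene in the platform annotation and is named through NCBI RefSeq's table, which lists its identifier as a synonym of Hsp83. RefSeq listed 111 probe set identifiers that the annotation also gives 1 gene, and all 111 named the same gene in both. Hsp23 has no probe set named here.

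Whole flies (Drosophila melanogaster, adult) gave RNA for 4 one-colour Affymetrix arrays, 1 sample on each, and all belong to a single baseline group. The flies ate a standard diet as larvae until early in the third instar, then food without yeast until 4 days after they emerged as adults, and were killed just before a refeeding time course began. The samples, called libraries 1, 2, 3 and 4 here, carry the labelled hours -4, -3, -2 and -1, an order that was assigned for a change-point analysis. No source used here gives the strain, the sex, the number of flies in a sample or whether the cultures were separate, so p-values speak only for the spread between these 4 samples, which may be technical. With no second group, the design allows a description of how steady these genes were over the baseline, a test of each library against the other 3 and a test of a trend over the labelled hours.

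Heat shock proteins hold or refold other proteins that have lost their shape. In flies, heat and other stress activate the trimeric transcription factor encoded by Hsf, which binds upstream of the Hsp70 genes, Hsp68, Hsp83, DnaJ-1 and the small heat shock genes. HSP70 proteins bind and release their clients in a cycle that burns ATP, J-domain proteins such as DnaJ-1 speed up the ATP step, and BAG-domain proteins such as that of stv help to release the nucleotide. Small heat shock proteins hold unfolded clients without ATP, and HSP90, made in flies from Hsp83, completes the folding of many signalling proteins and is abundant without stress. Several of the small heat shock genes are also active in the gonads and during development without any heat.

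Where the genes lie bears on which probe sets can tell them apart. By RefSeq's gene order on the fly assembly called Release 6 plus ISO1 MT, Hsp67Bc, CG4456, Hsp22, CG4461, Hsp26, Hsp67Ba, Hsp23 and Hsp27 follow each other on chromosome arm 3L with no other protein-coding gene between them. On arm 3R, Hsp70Ba, Hsp70Bbb, Hsp70Bb and Hsp70Bc stand next to each other, with CG5608 beside Hsp70Ba. The array files name no genome build, so no coordinates are given. Probe sets of nearly identical genes can share target RNA, and the Hsp70 values below belong to no single Hsp70 gene.

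The libraries differed in ways that touch these genes and are given first. Library 3 stood apart in markers of male reproductive tissue, on a testis list and a list of accessory gland and ejaculatory duct or bulb genes. Both lists were chosen with earlier results of these data known. Of the 30 measured genes on them, 28 had their highest value in library 3, beside 26.0% of all 13966 probe sets. Their summed intensity was 7293 in library 3, against 3393, 3421 and 3462 in libraries 1, 2 and 4. The testis list alone summed to 4589 in library 3, against 2730, 2768 and 2735 in libraries 1, 2 and 4, with 13 of 15 genes highest in library 3. The male gland and duct list summed to 2703 in library 3, against 663, 653 and 727 in libraries 1, 2 and 4, with 15 of 15 genes highest in library 3. None of these markers was listed at 0 in any library, and 10 of the 15 gland and duct genes lay below the floor of 57.1 used in the tests in each of libraries 1, 2 and 4. Egg shell and yolk genes summed to 3227 in library 3, against 3285, 3513 and 3298 in libraries 1, 2 and 4, and 0 of the 13 tested differed in library 3. Spiked hybridisation controls were 1.59 times their library 1 level in library 3, 1.29 times in library 4 and 0.927 times in library 2. For control transcripts, the mean log2 ratio of 3' to 5' probe sets was 1.44 (library 3) and 1.40 (library 4), where libraries 1 and 2 had 1.14 and 1.05. The part that any of these has in the results below was not tested. In whole flies, a change in the share of a cell type cannot be told apart from a change in the RNA of each cell.

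The Hsp70 sets, Hsp68 and Hsp26 were high in library 3, and the other members spread less. Of the 10 probe sets found by the rule, 8 had their highest value in library 3, beside 26.0% of all 13966 probe sets. The median log2 difference of library 3 from the mean of the other 3 was 0.27 over the 10 probe sets and -0.0033 over all probe sets, on the scale of the deposited values. The log2 differences of library 3 were 1.89 and 0.79 for the Hsp70 sets, 1.35 for Hsp68 and 1.003 for Hsp26. All values of Hsp68 lay under the highest negative control of their library. The values of DnaJ-1, stv, l(2)efl, Hsf and Hsp83 spanned at most 0.33 log2 units. Without library 3, the coefficient of variation (SD over mean) of the 10 probe sets lay between 0.741% and 7.84%.

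**Figure D1:**
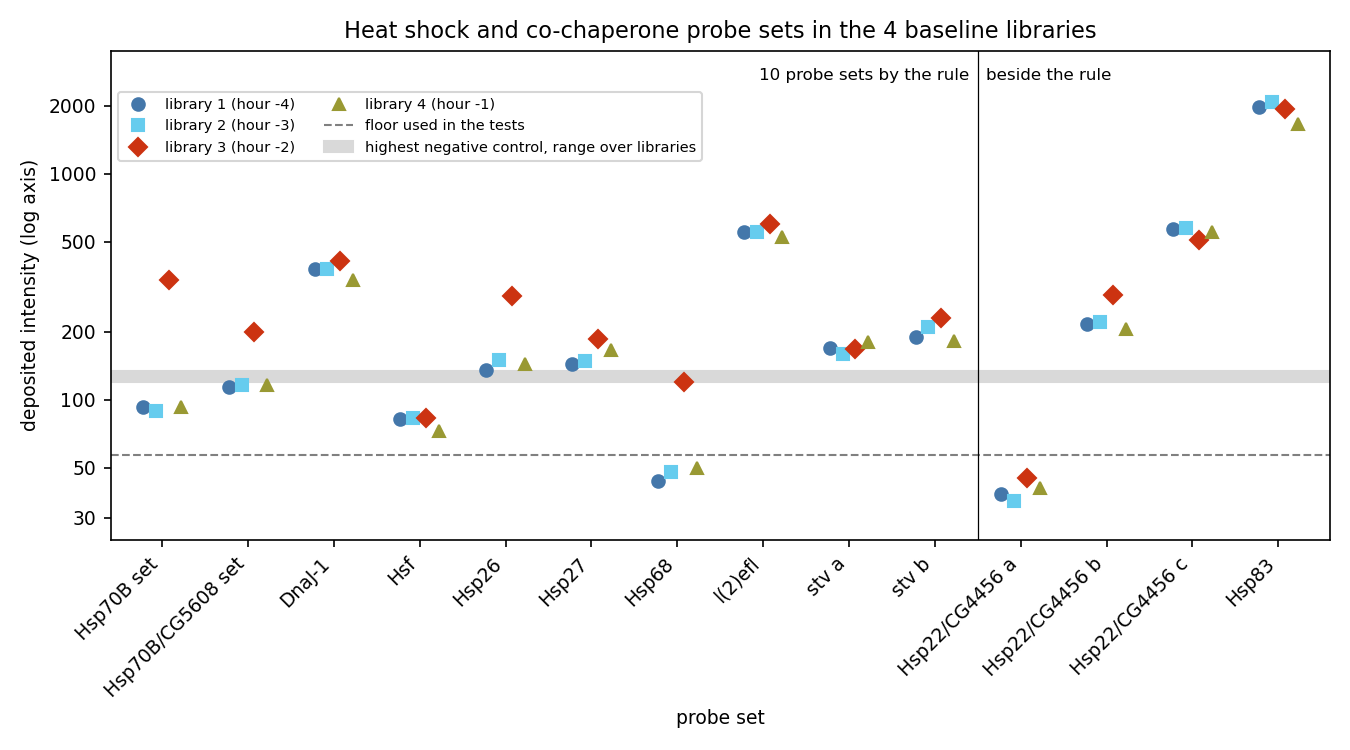
Deposited intensity (vertical, log axis) of the 14 probe sets in each baseline library, 1 point per library; the dashed line is the floor of 57.1 and the grey band is the range of the highest negative control over the libraries, 119 to 133. Library 3 stands far above the other 3 for both Hsp70B sets, Hsp26 and Hsp68, at 339, 199, 286 and 120; stv a is 148716_at, stv b is 151834_at, and Hsp22/CG4456 a, b and c are 142837_at, 142836_at and 142047_at.

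The Hsp70 genes encode the main stress-inducible HSP70, which is nearly silent in unstressed flies. The probe set that matches Hsp70Ba, Hsp70Bb, Hsp70Bbb and Hsp70Bc had an intensity of 339 in library 3, against 92.9, 89.1 and 93.2 in libraries 1, 2 and 4. Library 3 was high alone, and the other 3 averaged 91.7 ± 2.31 (SD, n = 3), below the highest negative control of their own library. Taking the highest negative control of each library in their place, the set was at least 2.72-fold higher in library 3. The fitted log2 difference was 1.89 ± 0.09 (SE), with an adjusted p of 2.07e-06 in limma. Only 5 of the 8379 tested probe sets had a smaller p in that comparison. This probe set entered the test only because of its value in library 3, since its mean without library 3 falls below the filter. Its p and rank in that comparison are therefore not read as support. Over the alternatives the log2 difference stayed between 1.87 and 1.90, but only quantile normalization and leaving out a library could change it. The set lay above the floor in every library, and neither the filter nor the prior enters the difference.

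The second Hsp70 probe set matches the same 4 genes and also CG5608, the gene next to them. Its intensity was 199 in library 3, against 114, 116 and 116 in libraries 1, 2 and 4. Library 3 was again high alone, and the other 3 averaged 115 ± 0.854 (SD, n = 3), again below the highest negative control of their own library. Taking that control in their place, the set was at least 1.598-fold higher in library 3. The fitted log2 difference was 0.79 ± 0.08 (SE) with an adjusted p of 0.00123 in limma. With no filter on low probe sets the same difference had an adjusted p of 0.0697, the largest over 8 alternatives, and it passed in the other 7. Which of the Hsp70 genes gave the signal cannot be read from either probe set.

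Hsp68 encodes another heat-inducible member of the HSP70 family, on arm 3R apart from the Hsp70 genes. Its probe set read 120 in library 3, against 43.5, 47.9 and 49.7 in libraries 1, 2 and 4. The value in library 3 is still below that library's highest negative control, 126, and the other 3 lie below the floor. The log2 difference given for Hsp68 therefore rests on values in the range of the negative controls and is not read as a fold. Hsp68 fell below the filter and was not tested in the main comparison. With neither floor nor filter, its log2 difference was 1.35 with an adjusted p of 6.08e-05 in limma. With the floor but no filter, the other 3 libraries are set to 1 value, and the p of that setting is not read.

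Hsp26 encodes a small heat shock protein of the cytosol, and of the members with a gene of their own that were tested it was the only one to pass. Its intensity was 286 in library 3, against 135, 149 and 144 in libraries 1, 2 and 4. The other libraries averaged 143 ± 6.93 (SD, n = 3), so the gap is many times their spread. Hsp26 lay 2.004-fold higher in library 3, a log2 difference of 1.003 ± 0.0855 (SE) with an adjusted p of 0.000261 in limma. The difference passed in 8 of 9 alternatives and did not pass with no filter. Those that leave out a library set library 3 against only 2 arrays, so their p-values rest mostly on the spread of other probe sets. The log2 difference stayed between 0.97 and 1.03, but only quantile normalization and leaving out a library could change it. Hsp26 lay above the floor in every library, and neither the filter nor the prior enters the difference.

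Hsp27, a small heat shock gene of the same cluster on 3L, showed a smaller step. Its intensity was 186 in library 3, against 144, 148 and 167 in libraries 1, 2 and 4. Library 3 was the highest and library 4 the next, and the log2 difference of 0.29 ± 0.10 (SE) did not pass (adjusted p = 0.547 in limma). Without library 4 it was 0.35 with an adjusted p of 0.00195, the only 1 of 9 alternatives in which it passed; the largest adjusted p among them was 1. The slope of Hsp27 over the labelled hours was 0.10 ± 0.04 log2 units per hour (SE), with an unadjusted p of 0.0490 and an adjusted p of 0.429 in limma.

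The 3 probe sets that match both Hsp22, a small heat shock protein of the mitochondria, and CG4456, the gene beside it, did not behave alike. Probe set 142836_at read 291 in library 3, against 216, 222 and 206 in libraries 1, 2 and 4. Its log2 difference was 0.44 ± 0.09 (SE), with an adjusted p of 0.0692 in limma. Over 9 alternatives the adjusted p ran from 0.000187 to 0.629, and it passed in 4 of them, among them those without library 2 (0.0218) and without library 4 (0.000187). Probe set 142047_at ran the other way and read 509 in library 3, against 571, 573 and 553 in libraries 1, 2 and 4, a log2 difference of -0.15 ± 0.10 (SE) with an adjusted p of 0.902 in limma. The third, 142837_at, lay below the floor in every library, with 45.1 in library 3, against 38.1, 35.7 and 40.8 in libraries 1, 2 and 4. No level of Hsp22 itself can therefore be given.

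The small heat shock gene l(2)efl, the fly relative of alpha B crystallin, was steady. Its intensity was 601 in library 3, against 549, 551 and 526 in libraries 1, 2 and 4. Library 3 was again the highest, but the log2 difference of 0.15 ± 0.10 (SE) had an adjusted p of 0.909 in limma. The coefficient of variation over all 4 libraries was 5.68%, near the 5.24% that was the median of all tested probe sets.

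DnaJ-1 encodes the main inducible J-domain partner of HSP70. Its intensity was 410 in library 3, against 380, 380 and 338 in libraries 1, 2 and 4. The log2 difference of library 3 was 0.17 ± 0.11 (SE) and did not pass (adjusted p = 0.883 in limma). Library 4 was the lowest, at a log2 difference of -0.21 ± 0.09 (SE) from the other 3, with an unadjusted p of 0.0432 and an adjusted p of 0.571.

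The gene stv encodes the BAG-domain co-chaperone starvin and has 2 probe sets, which ordered the libraries differently. Probe set 151834_at read 229 in library 3, against 189, 209 and 182 in libraries 1, 2 and 4, and 148716_at read 168 in library 3, against 169, 159 and 179 in libraries 1, 2 and 4. The first was highest in library 3 and lowest in library 4, while the second was highest in library 4. Their log2 differences for library 3 were 0.24 ± 0.10 (SE) and -0.01 ± 0.09 (SE), with adjusted p of 0.678 and 0.998 in limma, so neither passed.

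Hsf, the transcription factor that drives the heat shock genes, was dim. Its intensity was 82.9 in library 3, against 81.8, 83.0 and 72.9 in libraries 1, 2 and 4. Library 3 lay among the others and library 4 was the lowest. Every value was under the highest negative control of its library, and the probe set fell below the filter and was not tested. With neither floor nor filter its log2 difference for library 3 was 0.07, with an adjusted p of 0.935 in limma.

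Hsp83, the fly HSP90 gene, was bright in every library. Its intensity was 1940 in library 3, against 1968, 2080 and 1661 in libraries 1, 2 and 4. Library 3 fell inside the range of the others, with a log2 difference of 0.03 ± 0.12 (SE) and an adjusted p of 0.984 in limma. Library 4 was the lowest, at -0.26 ± 0.08 (SE) from the other 3 with an adjusted p of 0.554. Without library 3 that difference was -0.28 ± 0.07 (SE) with an adjusted p of 0.0200, the smallest over 9 alternatives, whose largest was 0.995. It passed in that 1 alternative only.

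Over the whole set, 3 of the 8 tested probe sets of the rule were higher in library 3 and 0 were lower, where 0.561% of all 8379 tested probe sets were higher and 0.704% differed in either direction. The 3 were the pair of Hsp70 sets and Hsp26. Because 1 of them entered the test only through library 3, the count over all 10 probe sets, with neither floor nor filter, is the fuller one: 4 were higher in library 3 and 0 lower, beside 0.881% of all 13966. Hsp68 was the one added, with a value in library 3 below that library's highest negative control and the other libraries below the floor. Both Hsp70 sets match the same 4 genes, and both stv probe sets are among the 8. All of these are therefore counts of probe sets and not of separate genes. Without library 4, library 3 is set against only 2 arrays and the p-values rest mostly on the prior. The count of members from that setting is therefore not read as support. Hsp27 had a log2 difference of 0.35 there.

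The test of variability over the 4 libraries compares the variance of each probe set with that of probe sets of like intensity, with no library singled out. It called 2 of the 8 tested members, beside 0.274% of all tested probe sets, and 1 of the 2, the 4-gene Hsp70 set, passed the filter only through library 3. With neither floor nor filter it called 3 of 10, beside 0.43% of all 13966, and Hsp68 was the one added (adjusted p = 0.0154). All values of Hsp68 lay under the highest negative control of their library. The 4-gene Hsp70 set had an SD 11.5 times the SD expected at its intensity (adjusted p = 0.00130 by the limma-based F test). Since this set entered the test only through library 3, its ratio and p are not read as support. Hsp26 had an SD 6.53 times the expected one (adjusted p = 0.0240 by the same F test). The Hsp70 set shared with CG5608 had a ratio of 4.85 and an adjusted p of 0.0759. Without library 3 the test called 0 of the 7 members that remained above the filter and 0 probe sets in all.

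Against the other 3, no member passed in libraries 1, 2 or 4. In library 1, limma called 0 of the 8, beside 0.0% of all tested probe sets, and 0 members and 172 probe sets had an unadjusted p under 0.05. In library 2 it called 0 of the 8, beside 0.107%, with 0 members and 237 probe sets at an unadjusted p under 0.05. In library 4 it called 0 of the 8, beside 0.0119%, with 1 member, DnaJ-1, and 723 probe sets at an unadjusted p under 0.05. The lowest value lay in library 4 for 4 of the 10, beside 28.0% of all probe sets. Hsp83, beside the rule and so outside these counts, was also lowest in library 4, at a log2 difference of -0.26. The trend over the labelled hour called 0 of the 8, beside 0.0%, with 1 of these members, Hsp27, and 968 probe sets at an unadjusted p under 0.05. Hsp83, outside this count, had a slope of -0.083 log2 units per hour. With the floor at the 5th percentile, that slope had an unadjusted p of 0.0357 and an adjusted p of 0.405 in limma.

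The other chaperones, on lists of small heat shock, HSP70-related, J-domain, HSP90 partner, chaperonin and endoplasmic reticulum (ER) genes, held 59 measured genes, each counted once. Of the 50 tested, 0 passed in any of the comparisons of library 1, 2, 3 or 4, in the variability test or in the trend. Without library 4, 1 of 49 was higher in library 3 than in libraries 1 and 2 (Cnx14D, adjusted p = 0.0383 in limma) and 2 were lower (CG7556 and CCT6), beside 2.01% higher and 4.01% lower of all tested probe sets. CG7556, a J-domain gene, read 260 in library 3, against 313, 315 and 289 in libraries 1, 2 and 4, and the chaperonin subunit CCT6 read 364 in library 3, against 432, 434 and 370 in libraries 1, 2 and 4. Of the 59 other chaperones, 10 had their highest value in library 3, beside 26.0% of all 13966 probe sets. The median log2 difference of the 50 tested for library 3 was -0.01, against 0.27 for the 8 tested members, both on values raised to the floor. Chaperones below the filter do not enter these medians. The 3 other small heat shock genes included CG7409, at 794 in library 3, against 892, 835 and 757 in libraries 1, 2 and 4, and CG4461, which sits between Hsp22 and Hsp26, at 457 in library 3, against 488, 462 and 418 in libraries 1, 2 and 4. Neither was highest in library 3, where Hsp26 was.

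Among the HSP70 cognates, of which 0 of 6 tested passed, Hsc70-3, the ER chaperone BiP, read 389 in library 3, against 421, 450 and 424 in libraries 1, 2 and 4. Hsc70-2 lay below the floor in every library, at 49.1 in library 3, against 34.0, 34.5 and 36.2 in libraries 1, 2 and 4. It was not tested in the main comparison, and with neither floor nor filter its adjusted p for library 3 was 0.139 in limma. Of the ER genes, 0 of 8 tested passed with all 4 libraries. The calnexin gene Cnx99A read 634 in library 3, against 679, 660 and 602 in libraries 1, 2 and 4. Its relative Cnx14D read 108 in library 3, against 90.9, 85.8 and 98.9 in libraries 1, 2 and 4 (adjusted p = 0.729 in limma with all 4 libraries).

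Of the chaperonins, barrel-shaped folding machines, 0 of 10 tested passed with all 4 libraries. The mitochondrial chaperonin Hsp60A read 877 in library 3, against 845, 911 and 863 in libraries 1, 2 and 4, and did not differ past the threshold (adjusted p = 0.997 in limma). Hsp60B, a relative needed in fly spermatogenesis, read 83.4 in library 3, against 28.4, 29.0 and 33.8 in libraries 1, 2 and 4. Hsp60C, another relative, read 72.5 in library 3, against 24.97, 33.0 and 27.9 in libraries 1, 2 and 4. Hsp60D, also a relative, read 69.9 in library 3, against 47.2, 49.6 and 54.7 in libraries 1, 2 and 4. These 3 lay below the floor in libraries 1, 2 and 4 and under the highest negative control of library 3, 126, and were not tested in the main comparison. With neither floor nor filter, Hsp60B (adjusted p = 0.000158) and Hsp60C (0.00117) passed in limma and Hsp60D did not (0.133). Hsp60B is also on the testis list, and Hsp60A, Hsp60C and Hsp60D are named here after their values were seen. The cytosolic chaperonin subunit CCT1 read 514 in library 3, against 533, 616 and 543 in libraries 1, 2 and 4.

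**Figure D2:**
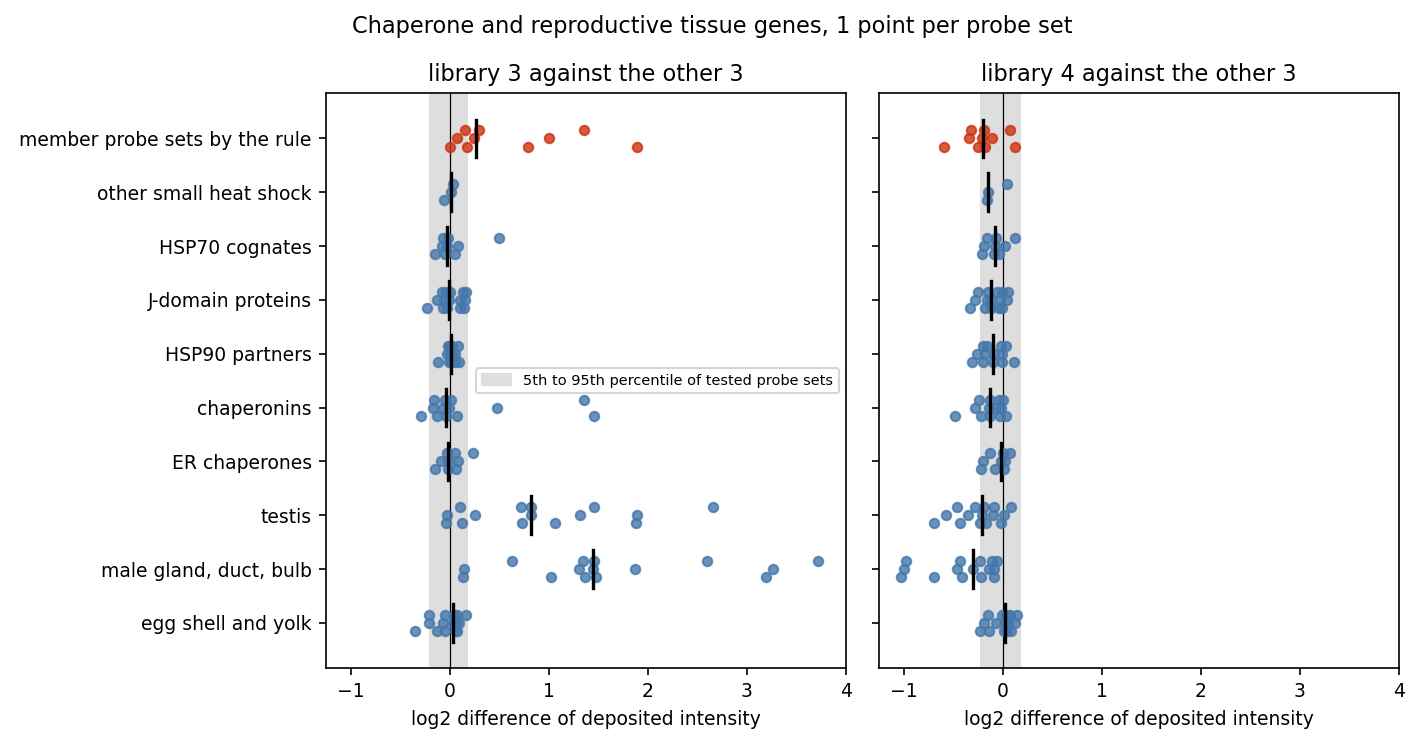
Log2 difference (horizontal) of library 3 (left) and library 4 (right) from the mean of the other 3, for the 10 member probe sets (red) and the genes of each list (blue), with list medians as black bars and the range from the 5th to the 95th percentile of all tested probe sets in grey. In library 3 the members spread from near 0 to 1.89, and both male lists lie to the right, while the other chaperone lists centre on 0 apart from single genes; the left shift of the male lists and some members in library 4 includes the high values of library 3 in the mean of the other 3.

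Several co-chaperones had their lowest value in library 4, though 0 of the 14 tested J-domain genes and 0 of the 11 tested HSP90 partners passed with all 4 libraries. The median log2 difference of the 50 other chaperones was -0.11 in library 4, where all tested probe sets had a median of -0.02. With library 3 left out, 5 of the 49 then tested were lower in library 4 than in libraries 1 and 2 and 0 were higher, beside 4.71% of all tested probe sets that were lower. The 5 were Droj2, Tpr2, Stip1, STUB1 and CCT5. None of the 7 rule members tested in that comparison passed. The 5 had log2 differences between -0.33 and -0.25 there, and none passed in library 4 with all 4 libraries.

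These 5 genes work beside the members. Droj2 encodes a J-domain partner of HSP70 and read 1325 in library 4, against 1593, 1564 and 1591 in libraries 1, 2 and 3. Stip1 links HSP70 to HSP90 and read 232 in library 4, against 280, 292 and 267 in libraries 1, 2 and 3. STUB1, a ubiquitin ligase that marks clients of both chaperones, read 90.1 in library 4, against 110, 116 and 111 in libraries 1, 2 and 3. In each of these, library 4 lay below all the others, but they were named because they were lower there. Library 4 was also the lowest for Hsp83 and DnaJ-1. Of the 10 probe sets of the rule, 4 were lowest in library 4, beside 28.0% of all probe sets, and stv 148716_at was highest there (179). Tpr2, which joins a J-domain to HSP-binding repeats, read 117 in library 4, against 152, 138 and 151 in libraries 1, 2 and 3. The chaperonin subunit CCT5 read 364 in library 4, against 426, 454 and 398 in libraries 1, 2 and 3. Cdc37, which brings protein kinases to HSP90, read 241 in library 4, against 244, 256 and 226 in libraries 1, 2 and 3, and so was not lowest there. CG7130, a J-domain gene, lay below the floor in every library, at 43.6 in library 4, against 47.2, 45.8 and 41.5 in libraries 1, 2 and 3.

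The genes with the profile most like that of the 4-gene Hsp70 set were sought over the 4 libraries by the Euclidean distance between log2 deviations from each probe set's own mean. The nearest were Mst84Dd (distance 0.0354), Mst87F (0.253), Anp (0.493), Mst84Da (0.499) and CG12699 (0.508). Mst84Dd, Mst87F and Mst84Da encode proteins of the sperm tail and are on the testis list, and Anp, an antimicrobial peptide gene of the ejaculatory duct, is on the male gland and duct list. Mst84Dd read 478 in library 3, against 128, 126 and 133 in libraries 1, 2 and 4, nearly the same proportions as the Hsp70 set. The nearest to Hsp26 were CG1394 (0.0956), CG2127 (0.121), CG4691 (0.148), CG31988 (0.160) and the long noncoding RNA gene lncRNA:CR32658 (0.166). CG2127 read 287 in library 3, against 128, 133 and 135 in libraries 1, 2 and 4. With 4 libraries and 1 of them apart, any probe set that is high in library 3 alone to the same degree comes out as near.

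**Figure D3:**
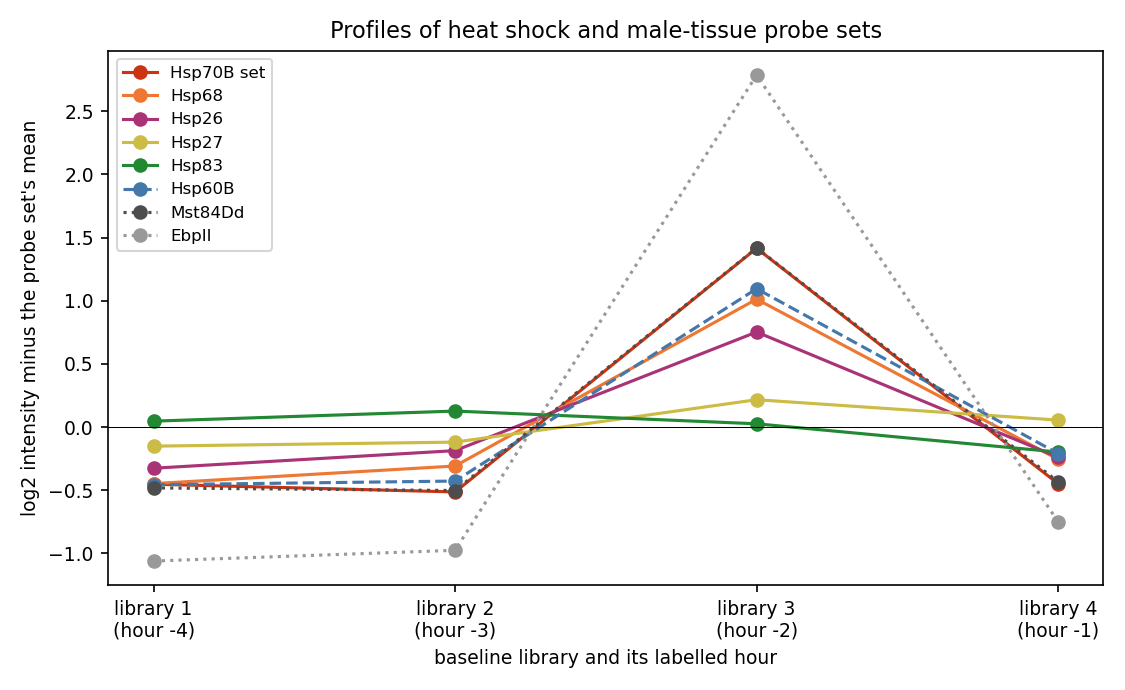
Log2 intensity minus the probe set's own mean (vertical) in each baseline library with its labelled hour (horizontal), 1 line per probe set. The 4-gene Hsp70B set, Hsp68, Hsp26 and Hsp60B peak in library 3 together with the male-tissue genes Mst84Dd and EbpII, which read 478 and 327 there, while Hsp83 does not.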

How the data were processed

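Whole-animal RNA of 4 baseline samples was hybridised to 1 array each. Per the labels, the authors used dChip (DNA-Chip Analyzer) to bring the arrays to a common scale by means of invariant probes. The deposited table holds linear intensities of 14010 probe sets on each array, 44 of them controls. No source used here gives the dChip version, its background model or detection calls. This normalization rests on most genes being steady. Arrays have no read depth, and their number, 4, limits the precision. The 4 columns had medians between 112 and 113, no pair of columns was identical, and no further normalization was applied.

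Probe sets were named from GEO's platform annotation, with symbols updated through RefSeq. A floor was set at the 20th percentile of intensity (57.1), log2 was taken, and the 8379 probe sets with a mean above the 40th percentile were tested with limma 3.58.1 (R 4.3.3, statmod 1.5.0). The difference of each library from the other 3, and the slope on the labelled hour, were fitted with a trended, robust prior (two-sided); the spread of a lone library is taken from the others. Variability was tested with an upper-tail F test on squeezeVar's prior variance (7.26 prior degrees of freedom). P-values were adjusted by Benjamini-Hochberg over all tested probe sets within each test, with a threshold of 0.05. Adjusted p in the text are of this kind. The scripts were tested on simulated data.

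Members and gene lists were chosen with earlier results of these data known. Every member was named whatever its values. From each other chaperone list the genes with the largest and the median log2 range were named, with any gene that passed a test, also with a library left out. Genes with several probe sets entered lists by the one with the highest mean, and no probe set's level was set against another's. Alternatives were a floor at the 5th percentile, quantile normalization, no filter, neither floor nor filter, a stricter filter (60th percentile), a prior that is not robust, the last 2 against the first 2 labelled hours, and leaving out each library. When a library is left out, a lone library is set against only 2 arrays, and the p-values rest mostly on the prior.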

Additional observations from a re-analysis of the deposited data

Results flagged for a closer look

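In 5 of the 14 probe sets, 1 library stood so far from the others that its gap to the nearest one, as a share of the whole range, exceeded Dixon's 95% critical value for 4 samples. Chance flags about 1 in 20 groups, and 5.52% of all 13966 probe sets passed the same criterion, 1.47% with library 3 as the high one. The 4-gene Hsp70 set read 339 in library 3 (gap 0.984 of the range), and the Hsp70 set shared with CG5608 read 199 in library 3 (0.981). Hsp68 read 120 in library 3 (0.919), and Hsp26 read 286 in library 3 (0.909). These 4 are high in the library in which 28 of 30 male-tissue markers were also highest, beside 26.0% of all 13966 probe sets. Those markers were chosen with earlier results of these data known, and their part in the values was not tested. The fifth is Hsf, which read 72.9 in library 4 (0.883), under the highest negative control of that library, 133.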

How the results depend on the processing

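In library 3, 3 of the 8 tested members passed in the main setting. The count was 1 of 6 with the filter at the 60th percentile, which removes dimmer members, 2 of 10 with no filter, where Hsp26 (adjusted p = 0.140) and the Hsp70 set shared with CG5608 (0.0697) no longer passed and Hsp68, with its other libraries all at the floor, was added, 4 of 10 with neither floor nor filter, and 3 to 4 when single other libraries were left out. The variability test called 2 members in the main setting, 0 with no filter, 1 with the filter at the 60th percentile, 1 with a prior that is not robust, and 0 to 3 when single libraries were left out, with 0 without library 3. With no filter, the 2392 probe sets at the floor in all 4 libraries enter the prior with no variance. The cause of the changes in count was not tested. For the probe sets of the rule, counts in libraries 1, 2 and 4 and in the trend stayed at 0 in each alternative run; Hsp83, beside the rule, passed in library 4 without library 3 (adjusted p = 0.0200). Over all probe sets, variability called 23 in the main setting, 0 with no filter or without library 3, 10 with the prior that is not robust, 12 with the stricter filter, 39 after quantile normalization, and 60 with neither floor nor filter. Library 3 called 59, against 24 with the stricter filter, 129 with no filter, 142 with neither and 504 without library 4. Library 4 called 1, against 106 with no filter and 503 without library 3, and the trend called 0, against 321 without library 3. The near-zero differences of library 3 in 2 probe sets changed sign: stv 148716_at was 0.0043 after quantile normalization and between -0.049 and 0.038 when single libraries were left out (0.038 without library 4), and Hsp83 was -0.015 after quantile normalization and between -0.061 and 0.102 (-0.061 without library 4). For single probe sets, 88 other values kept their direction and side of the threshold, 7 came to pass it and 2 no longer passed. No paired analysis was possible because there is 1 group. With 1 array to each sample, no detection calls and values of Hsp68, Hsf and the dim Hsp22 set at or under the negative controls, small differences in those genes could not be detected.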

Other observations

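Probe sets for 1 gene or gene pair gave different orders of the libraries. For stv, 148716_at was highest in library 4 (179) and 151834_at lowest there (182), each within its own scale. For the pair Hsp22 and CG4456, 142836_at was highest in library 3 (291) and 142047_at lowest there (509).

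Of the yolk protein genes, which the fat body and ovary of female flies express, Yp1 read 185 in library 3, against 249, 258 and 206 in libraries 1, 2 and 4. Yp3 read 298 in library 3, against 369, 370 and 301 in libraries 1, 2 and 4. Both were lower in library 3 than in libraries 1 and 2 when library 4 was left out, with log2 differences of -0.46 ± 0.08 (SE) for Yp1 and -0.31 ± 0.08 (SE) for Yp3 (adjusted p = 2.53e-05 and 0.00871 in limma). Yp1 and Yp3 were also lower in library 4 than in libraries 1 and 2 when library 3 was left out, with log2 differences of -0.30 ± 0.08 (SE) each (adjusted p = 0.0166 and 0.0219). With all 4 libraries neither passed in library 3 or library 4, and Yp1 had an adjusted p of 0.554 for library 3. Yp1 and Yp3 were chosen after their values were seen, and the list they come from did not shift as a whole. Its other yolk protein gene, Yp2, read 217 in library 3, against 222, 268 and 200 in libraries 1, 2 and 4. Over the 13 tested egg shell and yolk genes, the median log2 difference was -0.01 for library 3 without library 4. For library 4 without library 3 it was 0.02.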
